A study of Mus musculus with 12 samples.

Results

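The transcripts described here belong to 8 mouse genes that connect glucose entry to the electrical activity and calcium influx of the pancreatic β-cell: Slc2a2, Kcnj11, Abcc8, Cacna1c, Cacna1d, Cacna1a, Trpm4 and Trpm5. They were chosen by gene name from the 49315 genes in the count tables, and all 8 were among the 16844 genes that passed the filter on low counts. The cells were MIN6, a mouse insulinoma line of wild-type genotype that secretes insulin and serves as a model of the β-cell. All cells were grown in DMEM with 15% fetal bovine serum and 2 mM glutamine. Each of the 4 groups had 3 libraries of total RNA. In the re-added + Rap group, amino acids and an agent labelled "Rap" were given back together for 3 h, and in the re-added group amino acids were given back alone for 3 h. The starved group spent 16 h without amino acids, and the control group had no such treatment. The labels do not spell out Rap or give its dose, the make-up of the medium without amino acids, how long the re-added groups had been starved, or whether replicates were separate cultures. A p-value here thus sets a difference against the spread among replicates of unstated origin, which may be technical. The series title names PDX1 and amino acid signalling through mTORC1, so the comparisons ask how withdrawal of amino acids, their return, and Rap during the return changed transcript levels.

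In the β-cell, glucose enters through facilitative transporters and its metabolism raises ATP, which closes ATP-sensitive potassium (KATP) channels. The membrane then depolarises, voltage-gated calcium channels open, and the calcium that enters triggers release of insulin. Slc2a2 encodes GLUT2, the low-affinity transporter of rodent β-cells and liver. Kcnj11 encodes the pore and Abcc8 the regulatory sulphonylurea receptor of the KATP channel. Cacna1c and Cacna1d encode the pore-forming alpha1 subunits of the L-type calcium channels of the β-cell, and Cacna1a that of the P/Q-type channel. Trpm4 and Trpm5 encode cation channels that open when calcium rises inside the cell and carry a depolarising sodium current.

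In the count tables (build GRCm38.p6), Slc2a2 (ENSMUSG00000027690) spans chr3:28697903-28731359 on the plus strand. Kcnj11 (ENSMUSG00000096146, chr7:46093953-46100764) and Abcc8 (ENSMUSG00000040136, chr7:46104523-46180033) lie on the minus strand with 3758 bases between their outermost exons. Also on the minus strand are Trpm4 (ENSMUSG00000038260, chr7:45302632-45333780), Trpm5 (ENSMUSG00000009246, chr7:143069153-143094642), Cacna1c (ENSMUSG00000051331, chr6:118587240-119196418) and Cacna1d (ENSMUSG00000015968, chr14:30039949-30491156). Cacna1a (ENSMUSG00000034656, chr8:84388440-84640246) lies on the plus strand. Each interval runs from the first to the last exon base of the gene, and counts cover exons only.

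The RefSeq promoter table of GRCm38.p6 held entries for 4 of the 8 genes, Slc2a2, Trpm5, Cacna1c and Cacna1d. They are shown because no other member had an entry. They include 2 pairs whose members moved together: Slc2a2 with Trpm5, which fell in starved cells, and Cacna1c with Cacna1d, which rose there. Abcc8 and Trpm4, which had no entry, also rose in starved cells. Each line gives the 250 bases before an annotated start, 5′ to 3′ on the strand of the gene, with capitals where TAAT or its complement ATTA, the core that homeodomain factors such as PDX1 bind, was found.
Slc2a2, chr3:28697653-28697902, plus strand: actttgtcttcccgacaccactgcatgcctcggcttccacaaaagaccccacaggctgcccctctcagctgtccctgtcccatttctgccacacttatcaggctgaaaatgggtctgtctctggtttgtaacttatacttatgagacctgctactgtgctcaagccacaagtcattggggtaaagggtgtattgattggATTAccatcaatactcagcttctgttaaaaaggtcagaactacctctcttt
Trpm5, chr7:143094643-143094892, minus strand: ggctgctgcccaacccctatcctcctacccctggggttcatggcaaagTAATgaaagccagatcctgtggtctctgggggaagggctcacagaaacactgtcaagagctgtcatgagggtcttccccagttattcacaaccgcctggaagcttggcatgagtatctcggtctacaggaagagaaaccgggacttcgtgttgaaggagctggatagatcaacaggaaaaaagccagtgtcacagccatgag
Cacna1c, chr6:119196410-119196659, minus strand: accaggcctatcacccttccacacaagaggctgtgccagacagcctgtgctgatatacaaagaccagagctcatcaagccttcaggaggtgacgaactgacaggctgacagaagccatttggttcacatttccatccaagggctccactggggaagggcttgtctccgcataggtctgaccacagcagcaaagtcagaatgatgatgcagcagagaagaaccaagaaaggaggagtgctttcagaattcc
Cacna1d, chr14:30491157-30491406, minus strand: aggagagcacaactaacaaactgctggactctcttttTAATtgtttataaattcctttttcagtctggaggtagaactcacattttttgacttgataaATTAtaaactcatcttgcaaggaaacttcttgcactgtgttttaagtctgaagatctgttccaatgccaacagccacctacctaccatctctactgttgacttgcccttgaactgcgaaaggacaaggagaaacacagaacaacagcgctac
TAAT occurred 1 time in the Slc2a2 window, 1 time in the Trpm5 window and 2 times in the Cacna1d window, and was not in these letters of the Cacna1c window. It is a short word that 54.9% of the 32851 windows of this length in the table hold. The E-box CACGTG (6.02% of windows), its inner word ACGTG (16.6%), which is also the hypoxia response core, the forkhead word TGTTTAC (3.17%) and the HNF1 word GTTAAT, which contains TAAT (6.43%), were searched on both strands and found in none of the 4. RefSeq also gives other starts for Cacna1c and Cacna1d. Of those, 1 of Cacna1c held ACGTG. TAAT was in none of them, so the TAAT count of Cacna1d depends on the start shown. These matches describe the letters and no binding was measured.

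Levels per length of transcript, as TPM averaged over the 12 libraries, differed widely among the 8 genes. Abcc8 was by far the highest at 575 TPM, followed by Kcnj11 at 94.7 TPM, Trpm5 at 20.7 TPM and Trpm4 at 11.7 TPM. The calcium channel genes were at 5.35 TPM for Cacna1d, 4.72 TPM for Cacna1c and 2.43 TPM for Cacna1a. Slc2a2 was the lowest at 1.96 TPM and had 23 to 269 counts in a library, whereas no other member fell under 165 counts. In what follows, CPM (counts scaled to a common library total, after TMM scaling) compares libraries for 1 gene, adjusted p-values come from edgeR's quasi-likelihood test with Benjamini-Hochberg adjustment over all 16844 genes, and a call means an adjusted p under 0.05. In the F test of edgeR among the 4 groups, 7 of the 8 genes were called, against 71.9% of all genes tested, and Cacna1a was not (adjusted p = 0.353).

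**Figure D1:**
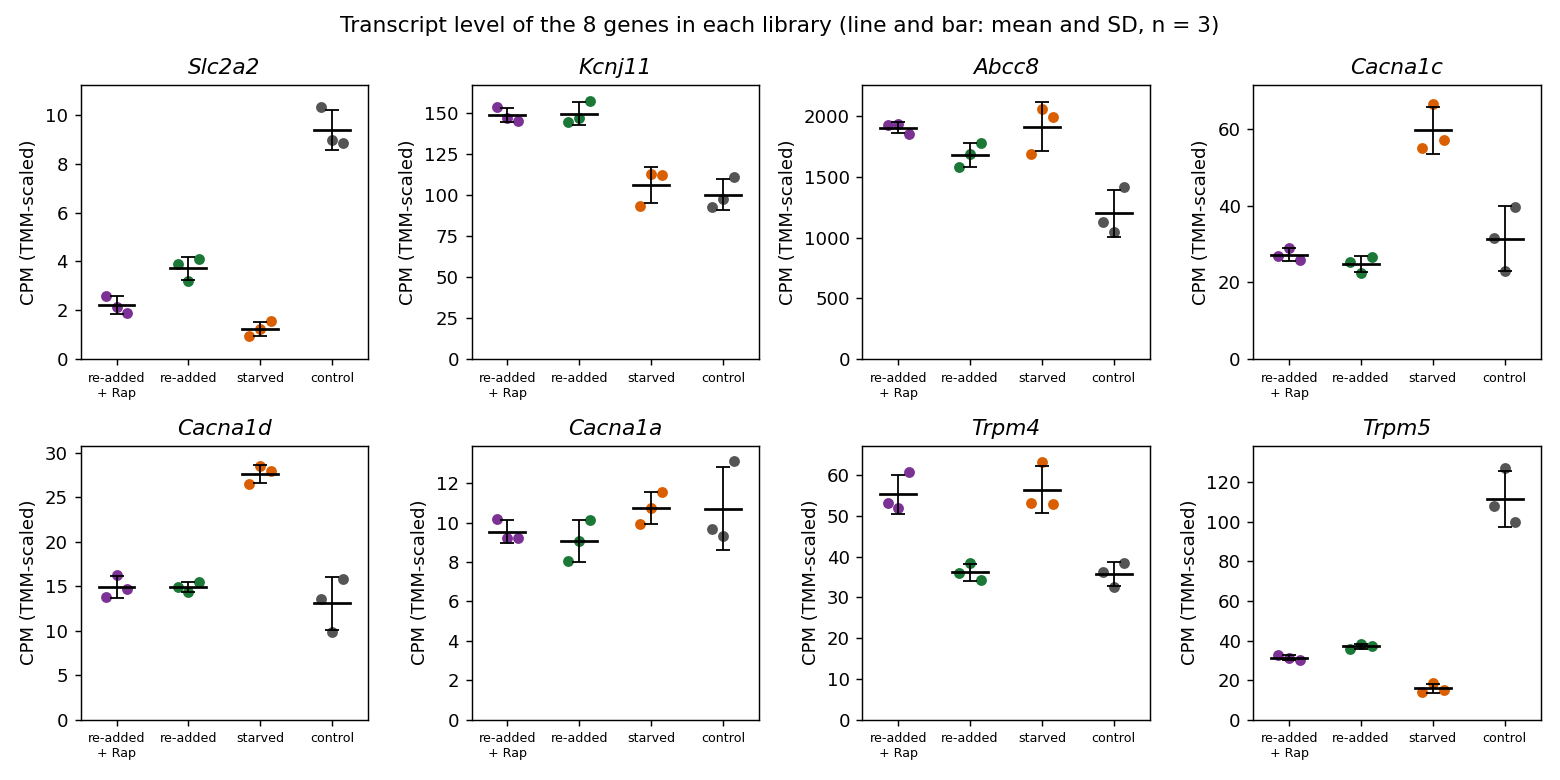
Transcript level of the 8 genes in CPM (TMM-scaled, linear axes from 0) in each library of the 4 groups, with 1 point a library and the group mean and SD as line and bar. Slc2a2 and Trpm5 were highest in control libraries, Cacna1c and Cacna1d were highest in starved libraries, and Trpm4 was high in the re-added + Rap and starved libraries.

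The libraries held 18555958 to 25631056 counts. β-cell markers were present in every library (Ins2 at 16638 to 32140 CPM by raw totals), with the maturity marker Ucn3 at only 0.424 to 1.48 CPM. A list of 30 markers of fibroblasts, leukocytes, endothelium and lung epithelium was not evenly spread over the groups. Its summed level was 133 to 149 CPM in re-added + Rap libraries, 158 to 1301 CPM in re-added libraries, 180 to 3002 CPM in starved libraries and 3057 to 3650 CPM in control libraries. The fibroblast marker Lum was at 0 in some libraries of the re-added + Rap and re-added groups, and none of the 30 was at 0 in all libraries. Replicate 1 of the re-added group (1301 CPM) and replicates 1 and 3 of the starved group (3002 and 1385 CPM) stood apart from the other libraries of their groups, which were at 158 to 180 CPM. Lung epithelium markers alone summed to 1433 to 1716 CPM in control and 38.5 to 45.9 CPM in re-added + Rap libraries. The source of this marker RNA was not tested, and the markers do not show that such cells were in the cultures. In RNA from whole cultures, fewer cells of a type and less RNA per cell cannot be told apart.

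Without amino acids for 16 h, 6 of the 8 genes changed relative to control: Slc2a2 fell 7.60-fold, Trpm5 fell 7.07-fold, and Cacna1d, Cacna1c, Abcc8 and Trpm4 rose by 1.58- to 2.11-fold. Kcnj11 and Cacna1a were not called. Of all genes tested, 38.9% were called in this comparison, 24.3% higher and 14.6% lower, beside 4 and 2 of the 8. The libraries of the 2 groups did not overlap for 6 of the 8 genes, against 50.1% of all genes. The median log2 fold change of the 8 genes was 0.37, beside 0.01 over all genes tested. With TMM scaling 4101 of all genes were higher and 2458 lower, and with upper-quartile scaling, which moved the median of all genes to -0.13, 2961 were higher and 3679 lower. In re-added against starved cells Slc2a2, Trpm5 and Kcnj11 were higher and Cacna1d, Cacna1c and Trpm4 lower. Both comparisons use the starved libraries, so their values are given side by side for each gene.

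Slc2a2, the transporter gene, was measured at 2.60, 2.15 and 1.88 CPM in re-added + Rap cells and at 3.89, 3.19 and 4.09 CPM in re-added cells. It was at 0.931, 1.23 and 1.54 CPM in starved cells and at 10.3, 8.98 and 8.87 CPM in control cells. No 2 of the 4 groups overlapped, and the order was control, re-added, re-added + Rap, starved. Slc2a2 was 7.60-fold lower in starved than in control cells (log2 fold change -2.93 ± 0.22 SE, adjusted p = 3.1e-06, edgeR). It was 3.02-fold higher in re-added than in starved cells (1.59 ± 0.22, adjusted p = 0.000157), and was 2.52-fold lower in re-added than in control cells (-1.33 ± 0.21, adjusted p = 0.000503). With Rap, the estimate relative to re-addition alone was -0.75 ± 0.21 on the log2 scale, with an adjusted p of 0.0516 in edgeR, so the neighbours re-added and re-added + Rap missed the threshold. The call depended on the method. DESeq2 gave an adjusted p of 0.0139, and the call was also made with 2 other scalings and without replicate 2 of the control group or any 1 starved library. Between re-added + Rap and starved cells the log2 difference was 0.84 ± 0.22 (adjusted p = 0.0112), and it lost its call when the marker sum was a covariate (0.81, adjusted p = 0.0519).

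Trpm5, one of the calcium-activated cation channel genes, changed in step with Slc2a2. It was at 32.6, 31.4 and 30.1 CPM in re-added + Rap cells, 35.5, 38.4 and 37.2 CPM in re-added cells, 14.0, 18.4 and 15.1 CPM in starved cells and 108, 127 and 99.7 CPM in control cells. The 4 groups again did not overlap and had the same order as for Slc2a2. Trpm5 was 7.07-fold lower in starved than in control cells (log2 fold change -2.82 ± 0.12, adjusted p = 2.3e-08, edgeR), the smallest adjusted p among the 8 genes in that comparison. It was 2.35-fold higher in re-added than in starved cells (1.23 ± 0.11, adjusted p = 8.0e-06) and 3.01-fold lower in re-added than in control cells (-1.59 ± 0.11, adjusted p = 2.6e-06). The difference between re-added + Rap and re-added cells was -0.24 (95% interval -0.48 to 0.00) and was not called (adjusted p = 0.224). An exon of Trpm5 overlaps one of Tssc4 on the opposite strand, and the strand setting of the counting is not given in the sources used here. Tssc4 averaged 156 CPM in re-added + Rap, 173 CPM in re-added, 129 CPM in starved and 141 CPM in control libraries. Its part in the counts of Trpm5 was not tested.

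Trpm4, the other calcium-activated cation channel gene, moved opposite to Trpm5 in starved against control and in re-added against starved cells. It was the 1 gene of the 8 called for Rap. It was at 53.2, 51.9 and 60.7 CPM in re-added + Rap cells and 36.0, 38.4 and 34.1 CPM in re-added cells. It was at 53.2, 63.0 and 52.9 CPM in starved cells and 36.3, 32.6 and 38.4 CPM in control cells. The re-added + Rap and starved libraries formed a high set that did not overlap the re-added and control libraries. Trpm4 was 1.53-fold higher in re-added + Rap than in re-added cells (log2 fold change 0.61 ± 0.10, adjusted p = 0.00256, edgeR). It was 1.58-fold higher in starved than in control cells (0.66 ± 0.10, adjusted p = 0.00032) and 1.56-fold lower in re-added than in starved cells (-0.64 ± 0.10, adjusted p = 0.000325). Within the high set, re-added + Rap and starved cells differed by -0.03 on the log2 scale (95% interval -0.24 to 0.18, adjusted p = 0.836). Within the low set, re-added and control cells differed by 0.02 (95% interval -0.20 to 0.23, adjusted p = 0.898).

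The genes of the KATP channel subunits changed at different steps. Abcc8 was at 1927, 1941 and 1857 CPM in re-added + Rap cells and 1587, 1687 and 1783 CPM in re-added cells. It was at 1689, 2066 and 1997 CPM in starved cells and 1132, 1051 and 1418 CPM in control cells. All 9 libraries of the other groups lay above the 3 control libraries. Abcc8 rose 1.60-fold in starved cells relative to control (log2 fold change 0.68 ± 0.11, adjusted p = 0.000563, edgeR) and was not called between re-added and starved cells (-0.19, 95% interval -0.42 to 0.05, adjusted p = 0.198). It was still 1.40-fold higher in re-added than in control cells (0.49 ± 0.11, adjusted p = 0.00434), a call that was lost with the marker sum as a covariate (0.31).

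Kcnj11 was at 153, 147 and 145 CPM in re-added + Rap cells and 144, 147 and 157 CPM in re-added cells. It was at 93.4, 113 and 112 CPM in starved cells and 92.5, 97.4 and 111 CPM in control cells. The re-added groups overlapped each other and lay above all starved and control libraries, which also overlapped each other. In starved cells relative to control the difference was 0.08 on the log2 scale (95% interval -0.11 to 0.27, adjusted p = 0.473, edgeR). Kcnj11 rose 1.41-fold in re-added relative to starved cells (0.50 ± 0.09, adjusted p = 0.000975), and re-added + Rap and re-added cells differed by -0.01 (95% interval -0.20 to 0.18, adjusted p = 0.96).

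The ratio of Abcc8 to Kcnj11 TPM within a library differed between groups. It was 5.71, 6.01 and 5.81 in the re-added + Rap libraries, 5.00, 5.22 and 5.15 in the re-added libraries, 8.22, 8.34 and 8.10 in the starved libraries and 5.56, 4.90 and 5.82 in the control libraries. The starved libraries stood above all 9 others, and their mean of 8.22 ± 0.116 compared with 5.43 ± 0.474 in control libraries (SD, n = 3 each). A two-sided exact permutation test gave p = 0.1 for starved against control, the smallest that 3 against 3 libraries allow (0.12 adjusted over 18 tests of 3 within-library measures). This ratio does not depend on scaling between libraries, and it counts transcripts, not channels.

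Of the 3 calcium channel genes, the L-type genes Cacna1c and Cacna1d rose in starved cells, and the P/Q-type gene Cacna1a was not called. Cacna1d was at 13.8, 16.3 and 14.7 CPM in re-added + Rap cells, 14.9, 14.4 and 15.5 CPM in re-added cells, 26.5, 28.5 and 28.0 CPM in starved cells and 13.6, 9.84 and 15.8 CPM in control cells. The starved libraries were above all others, which overlapped among themselves. Cacna1d was 2.11-fold higher in starved than in control cells (log2 fold change 1.08 ± 0.14, adjusted p = 0.000138, edgeR) and 1.85-fold lower in re-added than in starved cells (-0.89 ± 0.14, adjusted p = 0.000416). Re-added + Rap and re-added cells differed by 0.00 (95% interval -0.31 to 0.31), with a sign that changed with the scaling. Re-added and control cells differed by 0.19 (adjusted p = 0.284).

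Cacna1c, the other L-type gene of the 8, was at 26.9, 29.0 and 25.8 CPM in re-added + Rap cells and 25.2, 22.4 and 26.6 CPM in re-added cells. It was at 55.2, 66.5 and 57.2 CPM in starved cells and 31.7, 22.9 and 39.7 CPM in control cells. As for Cacna1d, only the starved libraries stood clear of the rest, and the control libraries had the widest spread. Cacna1c was 1.90-fold higher in starved than in control cells (0.92 ± 0.16, adjusted p = 0.000832, edgeR) and 2.41-fold lower in re-added than in starved cells (-1.27 ± 0.16, adjusted p = 8.7e-05). Re-added and control cells differed by -0.34 on the log2 scale without a call (95% interval -0.70 to 0.01, adjusted p = 0.0934). That difference was called with DESeq2 (-0.39, adjusted p = 0.0437), with upper-quartile scaling (-0.42, adjusted p = 0.031) and without replicate 2 of the control group (-0.52, adjusted p = 0.00591).

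Cacna1a was at 10.2, 9.21 and 9.21 CPM in re-added + Rap cells and 8.03, 9.05 and 10.1 CPM in re-added cells. It was at 9.93, 10.7 and 11.5 CPM in starved cells and 9.67, 9.30 and 13.1 CPM in control cells. All 4 groups overlapped, and adjusted p-values of edgeR in the 6 comparisons lay between 0.209 and 0.977. Starved and control cells differed by 0.01 on the log2 scale (95% interval -0.32 to 0.33), and the sign of that value changed with the scaling. Genes whose exons overlap those of Cacna1a and Cacna1d on the opposite strand, Gm16183 and Chdh, had at most 0.194 CPM and 0.434 CPM in a library.

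**Figure D2:**
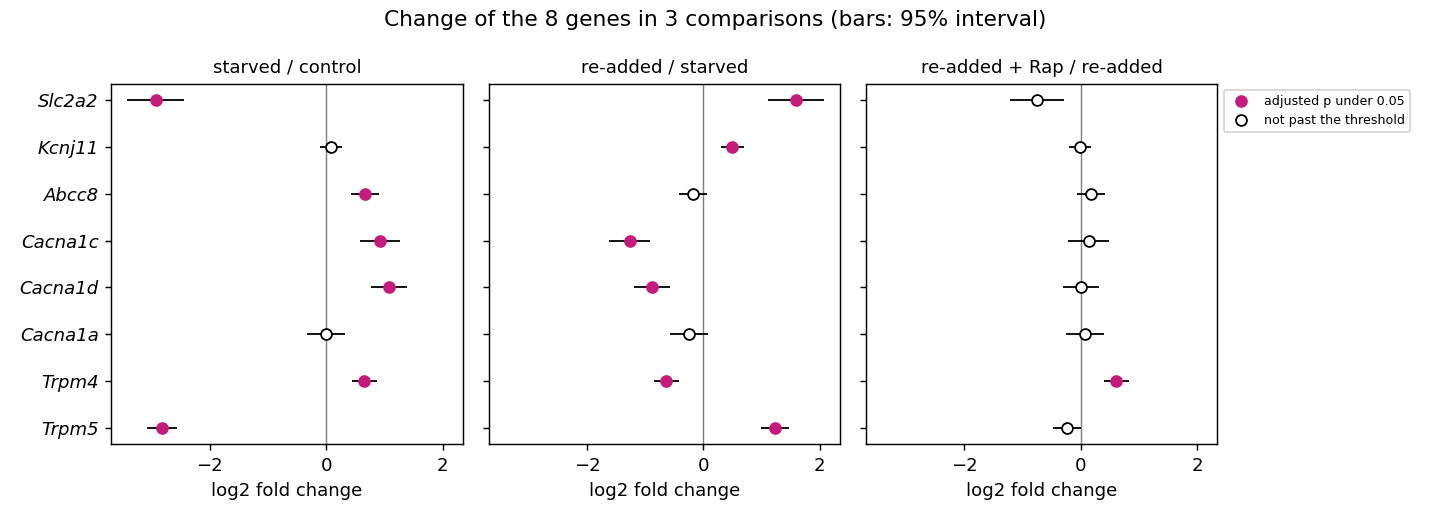
Log2 fold change of the 8 genes (x axis) with 95% intervals, for 3 comparisons: re-added + Rap over re-added on the right, re-added over starved in the middle, starved over control on the left. Filled points had an adjusted p under 0.05 in edgeR: 6 of 8 genes on the left and in the middle, and Trpm4 on the right.

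Between the re-added and starved groups, 3 of the 8 genes rose (Slc2a2, Trpm5, Kcnj11) and 3 fell (Cacna1c, Cacna1d, Trpm4), against 37.3% of all genes called, 18.4% higher and 18.8% lower. The groups did not overlap for 6 of the 8, against 50.6% of all genes. Between re-added + Rap and re-added cells 1 of 8 was called, higher, against 7.98% of all genes, 4.55% higher and 3.43% lower, and 4 did not overlap (Slc2a2, Abcc8, Trpm4, Trpm5), against 38.9% of all genes. Relative to starved cells, 3 genes rose (Slc2a2, Kcnj11, Trpm5) and 2 fell (Cacna1c, Cacna1d) in re-added + Rap cells, against 44.1% of all genes called, 20.2% higher and 23.9% lower. These groups did not overlap for 5 of the 8 genes, against 53.1% of all genes. Of the 6 genes called for re-addition, Trpm4 was the one without a call between re-added + Rap and starved cells. No test was made of these shares, since the 8 genes were chosen for their known roles and with results of these data known.

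At 3 h some of the 8 genes differed from control cells in each re-added group, in shares close to those of all genes. In re-added against control cells, 2 of 8 genes were higher (Kcnj11, Abcc8) and 2 lower (Slc2a2, Trpm5), against 49.3% of all genes called, 24.8% higher and 24.5% lower, and the groups did not overlap for 4 of the 8, against 59.5% of all genes. In re-added + Rap against control cells, 3 were higher (Abcc8, Trpm4, Kcnj11) and 2 lower (Slc2a2, Trpm5), against 53% of all genes called, 27.7% higher and 25.3% lower. There 5 of the 8 did not overlap, against 61% of all genes. Trpm4 was 1.55-fold higher there (log2 fold change 0.63 ± 0.10, adjusted p = 0.000436, edgeR), and Slc2a2 was 4.24-fold lower (-2.09 ± 0.22, adjusted p = 2.7e-05). Control libraries were the richest in the markers of other cells, and the 3 rises over control were not called with the marker sum as a covariate (Abcc8 0.43, Trpm4 0.43, Kcnj11 0.38). No re-added + Rap library had a marker sum near that of the control libraries, so marker content and treatment cannot be told apart in that comparison.

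The main comparisons could be set between libraries of like marker sums, where a lone library is taken to vary as the other groups do. Replicate 1 of the starved group, at 3002 CPM of markers, against the control libraries gave log2 differences of -3.31 for Slc2a2, -2.98 for Trpm5, 1.03 for Cacna1d, 0.83 for Cacna1c, 0.59 for Trpm4 and 0.51 for Abcc8, all 6 still called. The starved side of that comparison is 1 library. The starved side is again 1 library between replicates 2 and 3 of the re-added group and replicate 2 of the starved group, all at low marker sums. There the 6 calls of re-added against starved cells were made, with 1.62 for Slc2a2, 1.09 for Trpm5, 0.49 for Kcnj11, -0.87 for Cacna1d, -1.38 for Cacna1c and -0.74 for Trpm4. Trpm4 in re-added + Rap against re-added cells was 0.59 (adjusted p = 0.00853) without replicate 1 of the re-added group. Between such libraries 2 calls were lost: Slc2a2 in re-added + Rap against starved cells was 0.88 (adjusted p = 0.0669) and Abcc8 in re-added against control cells was 0.41 (adjusted p = 0.155).

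The share of Cacna1c and Cacna1d among the 10 alpha1 subunit genes was a second measure within each library. Cacna1c and Cacna1d together held 29.8%, 35.2% and 31.9% of the alpha1 TPM in the re-added + Rap libraries, 29.1%, 26.7% and 26.4% in the re-added libraries, 48.3%, 48.6% and 46.3% in the starved libraries and 38.2%, 33.7% and 38.2% in the control libraries. The starved libraries were above all others and the re-added libraries below all others. Means were 47.7% ± 1.26 in starved and 36.7% ± 2.59 in control libraries (SD, n = 3 each, two-sided exact permutation p = 0.1, the smallest possible, 0.12 adjusted over the 18 tests). The 10 genes also hold the L-type genes Cacna1f and Cacna1s. All 4 L-type genes together, a sum added after seeing the data, held 34.9% ± 2.35 in re-added + Rap, 30.3% ± 1.43 in re-added, 49.7% ± 1.60 in starved and 43.8% ± 2.12 in control libraries (SD, n = 3 each). Starved and control libraries did not overlap in that share either (difference 5.89 percentage points, against 10.99 for Cacna1c and Cacna1d alone, exact permutation p = 0.1, adjusted 0.12). Cacna1f was lower in starved than in control cells (log2 fold change -1.22 ± 0.28, adjusted p = 0.00466, edgeR), with means of 1.94 CPM in starved and 4.52 CPM in control libraries. Its share was uneven among control libraries, at 6.79% ± 3.44, beside 1.76% ± 0.308 in starved libraries (SD). With the 1 starved library of like marker sum against control, the log2 difference of Cacna1f was -1.04 and missed the threshold. In re-added libraries, where Cacna1c and Cacna1d held 27.4% ± 1.45, the largest share of a single gene was that of Cacna1h, a T-type alpha1 gene that opens at low voltage, which held 29.8% ± 0.403 there and 15.6% ± 0.377 in starved libraries. The share of Cacna1a was 7.79% ± 0.442 in re-added, 7.73% ± 0.408 in starved and 11.99% ± 0.981 in control libraries.

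**Figure D3:**
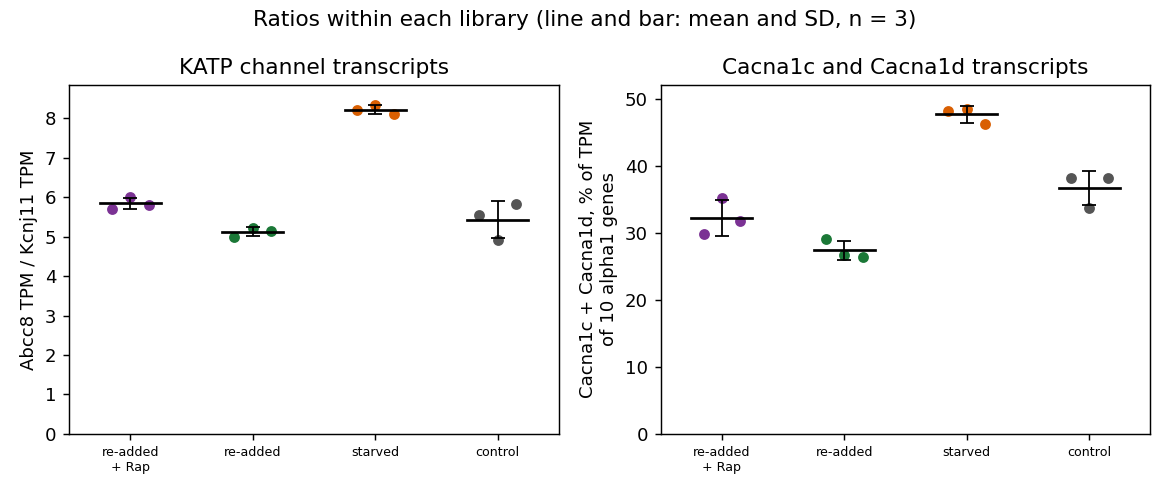
Left, Abcc8 TPM divided by Kcnj11 TPM, and right, Cacna1c plus Cacna1d as percent of the TPM of 10 alpha1 genes, in each library of the 4 groups, with the mean and SD (n = 3). Both measures were highest in the 3 starved libraries, with means of 8.22 and 47.7%.

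Slc2a2 was a minor glucose transporter transcript in these cells. Per length it averaged 1.02 TPM in re-added + Rap, 1.85 TPM in re-added, 0.617 TPM in starved and 4.35 TPM in control libraries. Slc2a1, the gene of the widely expressed transporter GLUT1, averaged 58.5 TPM in re-added + Rap, 81.2 TPM in re-added, 23.2 TPM in starved and 109.7 TPM in control libraries. Slc2a5, the fructose transporter gene, averaged 260.0 TPM in re-added + Rap, 245 TPM in re-added, 412 TPM in starved and 192 TPM in control libraries. Slc2a1 had the group order of Slc2a2, with a log2 fold change of -2.37 ± 0.07 in starved against control cells (adjusted p = 1.6e-09, edgeR) and 1.83 ± 0.07 in re-added against starved cells (adjusted p = 1.5e-08). Slc2a1 was lower in re-added + Rap than in re-added cells (-0.37 ± 0.07, adjusted p = 0.00499). Slc2a5 ran the other way, higher in starved than in control cells (0.98 ± 0.07, adjusted p = 1.7e-06). Among the 10 tested transporter genes other than Slc2a2, 3 were higher and 2 lower in starved than in control cells. That stood beside 24.3% higher and 14.6% lower of all genes tested. Slc2a8, an intracellular transporter gene, was higher in re-added + Rap than in re-added cells (0.93 ± 0.11, adjusted p = 0.000491, edgeR).

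**Figure D4:**
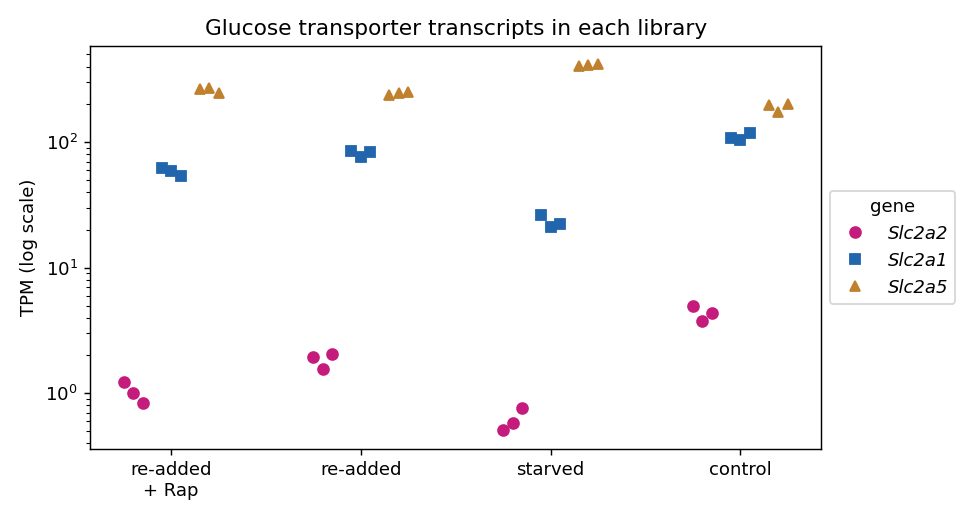
TPM (log axis) of Slc2a2, Slc2a1 and Slc2a5 in each library of the 4 groups, 1 point a library. Slc2a2 lay below the others in every library, and Slc2a1 and Slc2a2 were both lowest in starved libraries, where Slc2a5 was highest.

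The wider set of transporter and channel genes was described with 10 lists of 133 genes, of which 116 passed the filter. In starved against control cells 41 were higher and 9 lower (median log2 fold change 0.23), beside 24.3% higher and 14.6% lower of all genes tested. In re-added against starved cells 18 were higher and 30 lower (-0.27), beside 18.4% and 18.8% of all genes. In re-added + Rap against re-added cells 7 were higher and 3 lower (0.00), beside 4.55% and 3.43% of all genes. Without replicate 1 of the re-added group, 2 were higher and 1 lower with Rap, beside 509 higher and 535 lower of all genes tested in that fit. Between starved and other libraries of like marker sums, fewer listed genes were called, and also fewer of all genes. The starved side there is 1 library, so those counts are not set beside the shares above. The counts of single lists that follow stand beside the shares of the fit of all 12 libraries. The relatives of the KATP genes both rose in starved cells: Kcnj8, a pore gene, by 2.24 ± 0.29 and Abcc9, a regulatory subunit gene, by 2.31 ± 0.23 on the log2 scale (adjusted p = 0.000118 and 2.4e-05, edgeR). Kcnj8 averaged 3.19 CPM in starved and 0.677 CPM in control libraries, and Abcc9 5.56 CPM in starved and 1.13 CPM in control libraries. Of 6 other alpha1 genes, 2 were higher and 1 lower in starved cells, with Cacna1b, the N-type gene, at 0.96 ± 0.21. Of 11 auxiliary calcium channel genes, 4 were higher in starved cells and 4 lower after re-addition. Cacnb3, a beta subunit gene, was in both counts, at 0.41 ± 0.09 in starved against control cells and -0.95 ± 0.09 in re-added against starved cells. Between libraries of like marker sums, starved against control missed the threshold for Cacnb3 (0.25, adjusted p = 0.155) and for Cacna1b (0.71, adjusted p = 0.112).

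Potassium channel genes that repolarise the membrane moved in both directions. Of 22 voltage- and calcium-gated genes, 9 were higher and 1 lower in starved cells, and 4 were higher and 8 lower after re-addition. Kcnmb2, an accessory subunit of the large-conductance calcium-activated channel, averaged 50.9 CPM in re-added + Rap, 31.4 CPM in re-added, 58.7 CPM in starved and 29.5 CPM in control libraries. It was higher in re-added + Rap than in re-added cells (0.70 ± 0.11, adjusted p = 0.0022, edgeR). Of 12 two-pore and other inward rectifier genes, 2 were higher and 1 lower in starved than in control cells. The lower one was Kcnk16, the two-pore channel gene best known from islets (-1.11 ± 0.12, adjusted p = 3.1e-05, edgeR). The higher ones were Kcnk1 (0.60 ± 0.07) and Kcnj6 (0.84 ± 0.20). Between libraries of like marker sums Kcnj6 was 0.65 and missed the threshold. Of 14 other TRP genes, 5 were higher and 1 lower in starved cells, and Trpm7 rose by 0.79 ± 0.14 there and fell by 0.64 after re-addition. Of 11 chloride and pacemaker channel genes 5 were higher in starved cells, with the pacemaker gene Hcn4 at 0.90 ± 0.14. Of 19 calcium store and clearance genes, 7 were higher and 2 lower in starved cells. Atp2a3, a pump that fills the endoplasmic reticulum with calcium, was lower in starved than in control cells (-0.67 ± 0.10) and higher in re-added than in starved cells (0.48 ± 0.10).

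**Figure D5:**
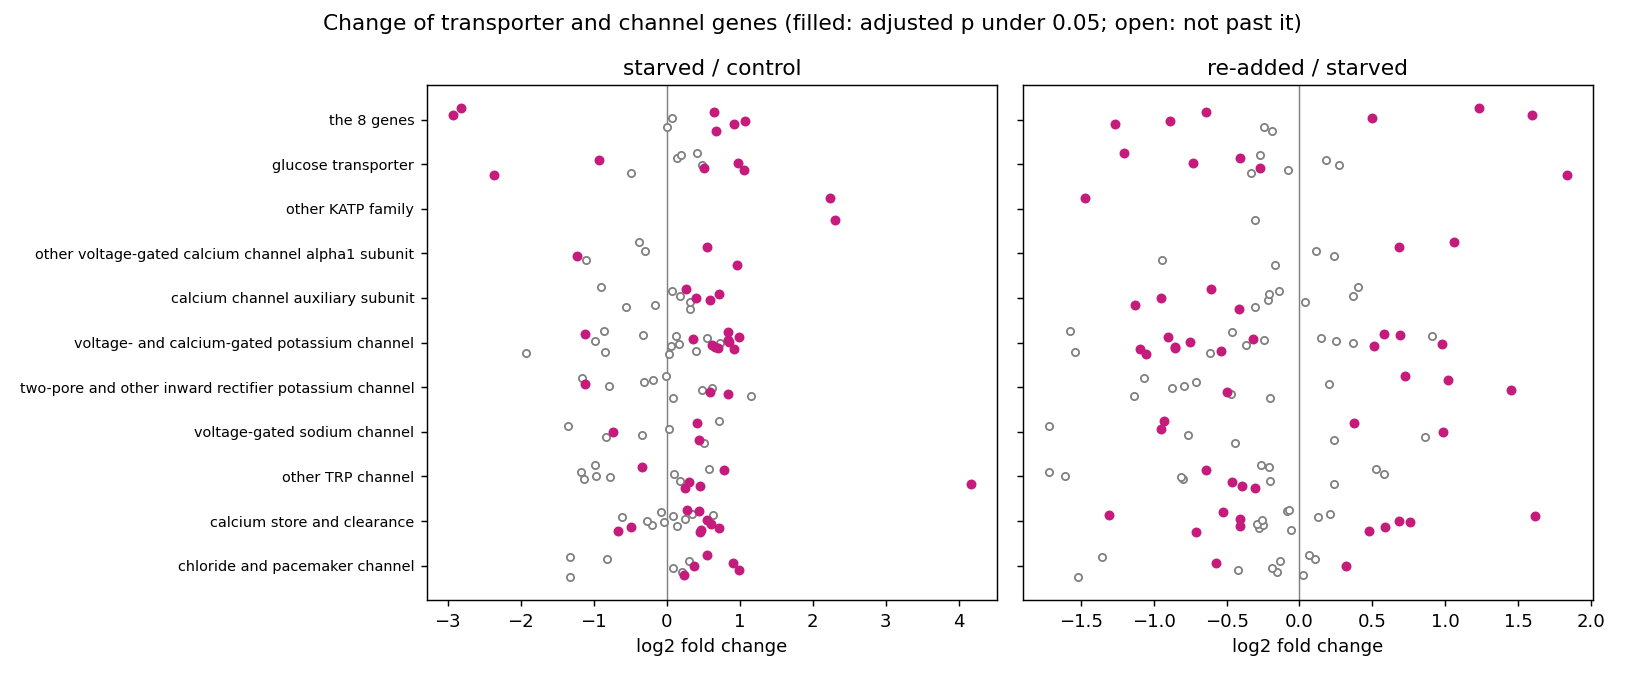
Log2 fold change (x axis) of the 8 genes and of the tested genes of 10 lists of transporter and channel genes (1 row a list, 1 point a gene) in starved against control and re-added against starved cells. Filled points had an adjusted p under 0.05 in edgeR: 41 higher and 9 lower of 116 listed genes on the left, and 18 higher and 30 lower on the right.

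As a description, the genes whose log2 CPM followed each member most closely over the 12 libraries were sought among 13150 genes. These libraries share 4 groups, so high correlations are common and no p is given. Trpm5 was closest to Aldoa (Pearson r = 0.994), Ldha (0.994) and Fam162a (0.992), and Slc2a2 to Slc16a3 (0.978), Stc1 (0.977) and Gpi1 (0.975). Between themselves Slc2a2 and Trpm5 correlated at 0.968, and Cacna1c and Cacna1d at 0.916. The likest genes were Slc38a1 (0.993) for Cacna1d, Clstn1 (0.989) for Abcc8, Bach1 (0.988) for Cacna1c, Osbp (0.986) for Kcnj11 and Oser1 (0.967) for Trpm4. For Cacna1a, whose groups overlapped, the highest value was 0.924, with Foxm1.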

How the data were processed

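RNA of 12 MIN6 libraries was analysed. The authors deposited whole-number read counts per gene for each library, with exon coordinates and lengths per the file headers. They also deposited a table of TPM, which equals counts per exon length rescaled to a fixed sum within 5.0e-05 and holds the gene names. Its 12 columns were matched to libraries by their names. The submitters' processing notes name GRCm38.p6, Subread 2.0.1 and limma 3.46.0 without roles. No aligner or strand setting is stated in the sources.

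Counts were fitted in R 4.3.3 with edgeR 4.0.16 (filterByExpr, TMM, 1 quasi-likelihood fit of 4 group means over 12 libraries, 8 residual degrees of freedom), with Benjamini-Hochberg adjustment over 16844 genes and a threshold of 0.05. Each comparison was a contrast in that fit, and the interval of a log2 fold change is at 95%. The routine and DESeq2 1.42.0, the alternative tool, were tested on simulated counts. Other alternatives were upper-quartile and RLE scaling, other filters on low counts, fits of 6 libraries, each library left out, a replicate block, the marker sum as a covariate and libraries matched on it. Whether the replicate numbers pair the libraries could not be settled. Of 18 same-numbered pairs, 2 had deviations from their group means that correlated above 0.1. Those were starved with re-added libraries of replicates 1 and 2 (r = 0.81 and 0.67), and replicate 3 of these groups gave -0.33. Libraries within these groups also differed in marker sums, so a pairing and the marker content cannot be told apart. All replicates differed beyond sampling noise. The 8 genes and the lists were chosen with earlier results of these data known. Named beside the 8 are, per list and comparison, up to 3 called genes of smallest adjusted p with a mean of at least 1 CPM, and the 3 most correlated genes of each member. A few genes named by this rule are left out of the text.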

Additional observations from a re-analysis of the deposited data

How the results depend on the processing

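Of 27 called differences of the 8 genes, refitted 568 times under 22 settings, 558 refits kept the direction and the call, 10 lost the call and 0 reversed. At least 1 refit lost the call for 8 of the 27. Calls among the 8 genes in re-added + Rap against re-added cells, 1 in the analysis as reported, were 2 with DESeq2, upper-quartile scaling, RLE scaling, the filter of at least 1 CPM in 6 libraries or the marker covariate, the second gene being Slc2a2, and 4 in a fit of those 6 libraries alone. In re-added + Rap against control cells they were 2 in place of 5 with the marker covariate. In re-added against starved cells they were 3 in place of 6 when replicate 1 of the re-added group was set against replicate 3 of the starved group, 2 libraries with many markers of other cells, a choice made after seeing the data, in which each lone library is taken to vary as the other groups do. The cause of these changes was not tested, beyond the smaller number of libraries in the last. Leaving out each library in turn gave 6 calls in starved against control, 6 in re-added against starved, 1 to 2 in re-added + Rap against re-added, 5 in re-added + Rap against starved, 4 to 5 in re-added against control and 5 to 6 in re-added + Rap against control cells.

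Among the 8 genes, only uncalled differences changed sign. For Cacna1a in starved against control cells the log2 values were -0.056 with DESeq2 and RLE scaling, -0.13 with upper-quartile scaling, -0.015 without a filter, -0.032 with the stricter filter, -0.029 with 6 libraries, -0.072 with the covariate and -0.088 with matched libraries. For Cacna1d in re-added + Rap against re-added cells they were -0.015 with DESeq2, -0.014 with RLE scaling, -0.0059 with upper-quartile scaling, -0.032 without a filter, -0.0031 with the stricter filter, -0.030 with 6 libraries and -0.021 with the covariate or matched libraries. For Trpm4 in re-added against control cells they were -0.029 with DESeq2, -0.028 with RLE scaling, -0.063 with upper-quartile scaling, -0.022 with the stricter filter, -0.0016 with 6 libraries and -0.12 with the covariate. Kcnj11 in starved against control cells was -0.063 with upper-quartile scaling and -0.083 with matched libraries. With upper-quartile scaling, Abcc8 was 0.050 and Trpm4 was 0.028 in re-added + Rap against starved cells. Cacna1a in re-added + Rap against re-added cells was -0.031 with matched libraries. Of listed genes, Lrrc8c in re-added + Rap against starved cells was 1.02 with the covariate and 0.61 with matched libraries, and against control Scn7a was 0.71 and Ano1 was 0.44 with the covariate. With single libraries left out, ranges that crossed 0 were -0.0094 to 0.16 for Kcnj11 and -0.094 to 0.18 for Cacna1a in starved against control cells. In re-added + Rap against re-added cells they were -0.056 to 0.029 for Kcnj11, -0.066 to 0.054 for Cacna1d and -0.031 to 0.16 for Cacna1a. In re-added + Rap against starved cells they were -0.074 to 0.028 for Abcc8 and -0.0997 to 0.015 for Trpm4. Against control they were -0.045 to 0.072 for Trpm4 in re-added cells and -0.25 to 0.0085 for Cacna1a in re-added + Rap cells.

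The replicate block changed no call among the 8 genes. It gave 6512 calls over all genes in starved against control cells in place of 6559, and 1067 in place of 1344 in re-added + Rap against re-added cells. Of the 12 libraries, 4 correlated best with a library of their own number. Counts over all genes moved by over 1.5 times in several settings: re-added + Rap against re-added cells had 2306 calls with DESeq2, 3959 with 6 libraries, 2058 without replicate 2 of the control group, 635 to 665 without replicate 2 or 3 of the re-added group and 665 to 693 without any 1 re-added + Rap library, in place of 1344. Starved against control cells had 4199 with 6 libraries and 3236 with matched libraries in place of 6559. With the covariate, re-added against control cells had 2958 in place of 8304 and re-added + Rap against control cells 1890 in place of 8927, and re-added + Rap against starved cells had 4857 in place of 7424. Without its replicate 3, the re-added group had 5208 against control, and without its replicate 3 the re-added + Rap group had 4940 against starved cells. Matched libraries gave 3338 for re-added + Rap against starved and 1756 for re-added against control cells. In re-added against starved cells they gave 3559 in place of 6275, and the pair rich in other-cell markers gave 1627. Slc2a2, at 23 to 48 counts in re-added + Rap and starved libraries, is the gene most limited by depth. Matched libraries were not run for re-added + Rap against control cells, since no pair had like marker sums.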
